A study of Homo sapiens with 5 samples.

Results

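The 45 genes described here encode the actomyosin machinery and the proteins that build and shape actin filaments: non-muscle myosin II and its light chains, their kinases and phosphatase, the ROCK and LIM kinases, cofilins, profilins, formins, actins, tropomyosins, the calponin family, the ERM proteins, the Arp2/3 complex and 3 proteins that act with it or bundle filaments. They were chosen by gene symbol, as a list of names with no threshold on their values, from the 25382 genes of the count table, but earlier results of these data were known when the list was drawn up. All 45 were found and all 45 had enough reads to be tested, among 13297 genes tested. The cells were MDA-MB-231, an established human line of triple-negative breast cancer that is mesenchymal in character, grown in DMEM with serum; the labels name no genetic change or drug for either group. Shear stress split the cells of this line into weakly adherent ones, with 3 libraries dated 6, 12 and 15 March, and strongly adherent ones, with 2 libraries dated 6 and 15 March. The study compared what the 2 populations express. The labels do not say whether libraries came from separate cultures, so p-values measure the spread between these libraries, which may be partly technical. Both groups are defined by the separation itself, so earlier expression and any response to the shear cannot be told apart. These are bulk libraries, in which fewer cells of a kind and less RNA per cell cannot be told apart either.

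Myosin II pulls on actin filaments once its regulatory light chain is phosphorylated, by myosin light chain kinase or by the ROCK kinases, and it stops when myosin phosphatase removes the phosphate. ROCK also activates the LIM kinases, which switch off the filament-severing protein cofilin. Formins and the Arp2/3 complex start new filaments, straight and branched ones respectively, while tropomyosins, calponins and caldesmon bind along filaments and set which of them myosin can use. In adherent cells these proteins build stress fibres, the cortex and the leading edge.

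Each library held 19630386 to 21707459 reads assigned to genes. Levels are given as CPM, counts scaled to the same library size after TMM normalization, and a log2 fold change is the weakly minus the strongly adherent group. The 5 markers of this line's mesenchymal state, one of which is the member MSN, were all expressed, at a summed 6349 to 7022 CPM. Of 7 smooth muscle markers, 6 were below the level tested and only SYNM was above 1 CPM. Of 6 luminal markers, ESR1 and PGR had 0 reads in every library, while KRT8 was at 572 to 727 CPM, EPCAM at 19.4 to 25.8, GATA3 at 12.4 to 14.02 and CDH1 at 1.18 to 2.07 CPM. Of 5 blood cell markers, 3 had 0 reads, and of 6 fibroblast markers 3 were tested and 0 were called. None of these 5 marker lists had a called gene in the unpaired test; when libraries were paired by date, the fibroblast markers COL1A1 (log2 fold change 0.42, adjusted p = 0.014 in edgeR) and COL1A2 (-0.82, adjusted p = 1.6e-05) were called, in opposite directions.

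Serum response factor, SRF, is a known regulator of cytoskeletal genes; it binds the CArG box, and its coactivators are held back by free actin. RefSeq promoter windows on GRCh38.p14, 250 bases before to 50 after a gene's start, were found for 38 of the 45 members, and not for ACTB, FSCN1, PFN2, TAGLN, MYL9, ARPC1B and CTTN. A CArG box, whose general pattern is the same on both strands, occurred in windows of 5 of these 38 genes: MYLK, ACTG1, ROCK2, CNN2 and TPM4. That is 7.81% of 64 member windows, beside 1.29% of all 35116 windows. A match describes letters and not a bound site, and which start these cells use was not tested. The 38 genes had 64 windows, so some had several starts. Whether the starts with a box give the full-length products, such as the MYLK kinase, was not tested. The 250 bases before the start are printed for the 3 genes among them that were called with or without a date block, which pairs libraries of the same day, or were most abundant, with the box in capitals: MYLK at chr3:123620549-123620798, ACTG1 at chr17:81512800-81513049 and ROCK2 at chr2:11345438-11345687, all on the minus strand and written 5′ to 3′ along the gene.
MYLK: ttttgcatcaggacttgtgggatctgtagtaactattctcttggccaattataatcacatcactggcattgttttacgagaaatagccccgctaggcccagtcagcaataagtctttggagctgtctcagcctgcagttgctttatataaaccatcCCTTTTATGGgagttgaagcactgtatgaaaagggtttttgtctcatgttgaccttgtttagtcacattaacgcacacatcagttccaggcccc
ACTG1: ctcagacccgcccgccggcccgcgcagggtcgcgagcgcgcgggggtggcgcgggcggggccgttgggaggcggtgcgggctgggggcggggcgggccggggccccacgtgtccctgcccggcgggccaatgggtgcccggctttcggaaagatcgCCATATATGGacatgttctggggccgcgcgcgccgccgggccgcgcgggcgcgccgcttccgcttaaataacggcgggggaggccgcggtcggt
ROCK2: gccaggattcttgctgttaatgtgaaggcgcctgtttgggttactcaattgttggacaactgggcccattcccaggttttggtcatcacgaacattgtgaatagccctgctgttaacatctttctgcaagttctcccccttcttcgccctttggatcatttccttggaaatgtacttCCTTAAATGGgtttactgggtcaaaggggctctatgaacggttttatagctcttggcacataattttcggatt
The box begins 94 bases before the start in MYLK and ACTG1 and 73 bases before it in ROCK2.

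Little of this machinery differed between weakly and strongly adherent cells by a margin that the libraries could separate. In the quasi-likelihood test of edgeR, with the Benjamini-Hochberg adjusted p held under 0.05, 1 of the 45 genes rose, the kinase ROCK2, and 1 fell, the tropomyosin TPM1. Over all genes tested, 1.77% were called higher and 0.918% lower, so a call of 1 gene in each direction is near that background. The sign leaned one way: 30 of the 45 log2 fold changes were negative and 15 positive, where 50.2% of all genes were negative and 49.8% positive. The median of the 45 was -0.066, against -0.00054 over all genes tested, and they ranged from -0.49 to 0.35. At an unadjusted p under 0.05, 9 members were lower and 1 was higher, beside 6.35% and 7.86% of all genes.

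**Figure D1:**
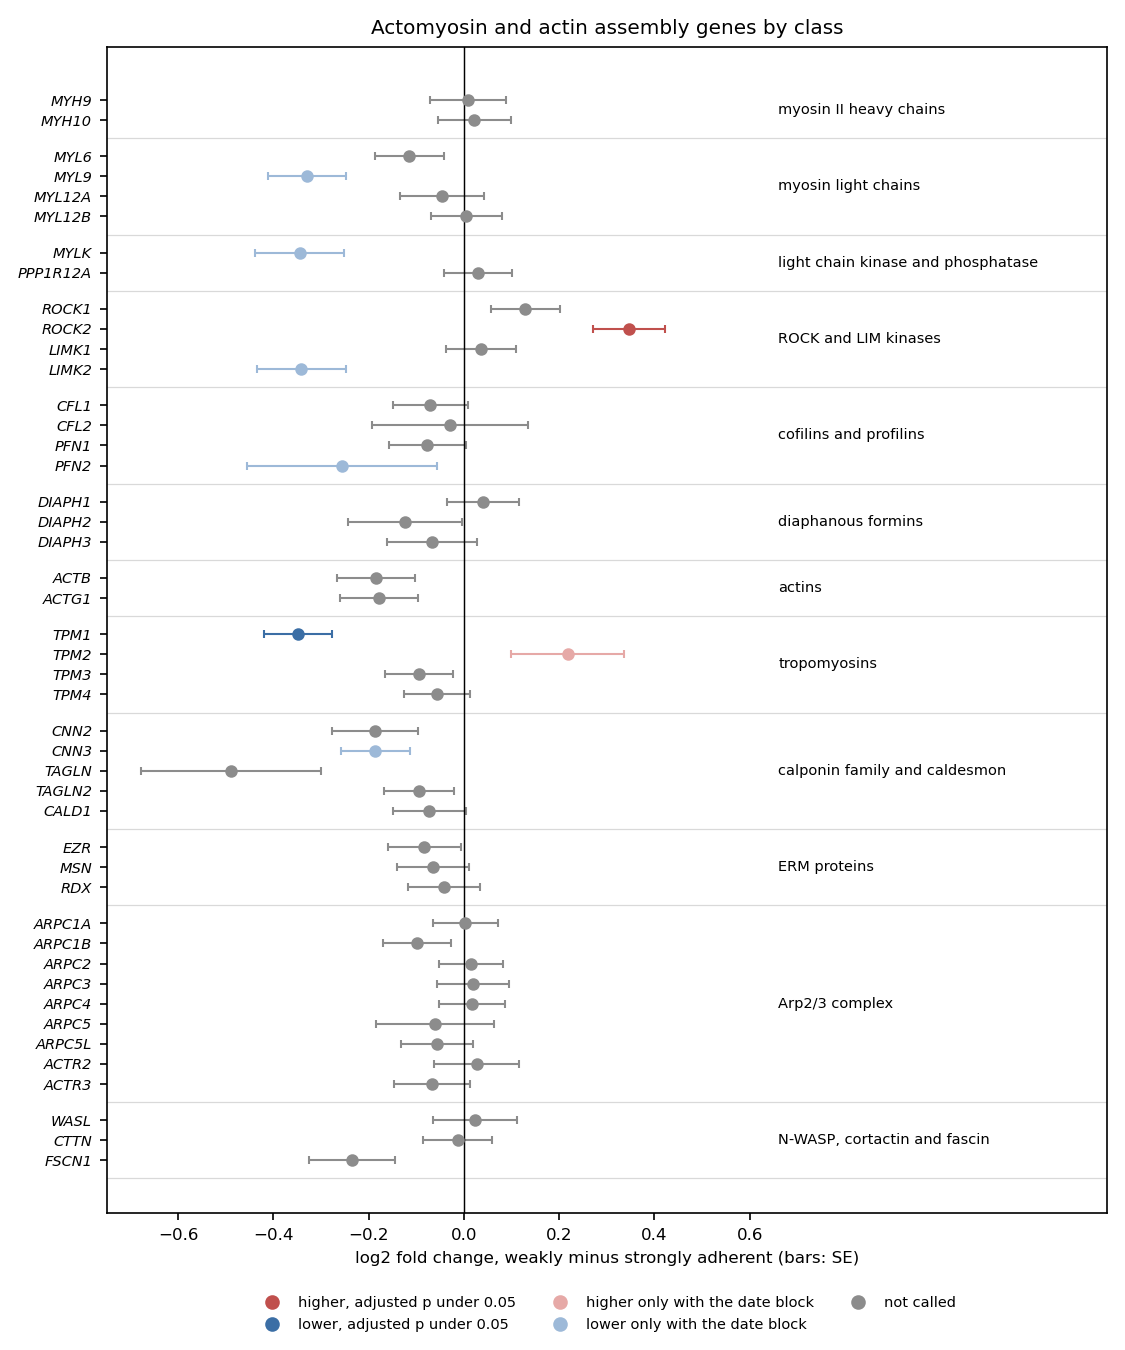
Log2 fold change of the 45 genes (x axis, weakly minus strongly adherent, bars are standard errors), grouped by class down the y axis and coloured by call. ROCK2 at 0.35 and TPM1 at -0.35 are the 2 genes called without the date block, and the 9 Arp2/3 genes lie between -0.10 and 0.03.

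Libraries of the 2 groups that share a date were also compared as pairs, with the date as a block in edgeR. In that fit 2 members were higher, ROCK2 and TPM2, and 6 were lower, MYL9, MYLK, LIMK2, PFN2, TPM1 and CNN3. The same fit called 6.20% of all genes higher and 5.28% lower, against 4.44% and 13.3% of the members. It leaves 1 residual degree of freedom, and the 12 March weakly adherent library, which has no partner, carries no weight in it. Its p-values therefore rest largely on a spread estimated across genes, and little on how closely a gene's own pairs match. For MYL9 the pairs of 6 and 15 March gave -0.46 and -0.14 on the log2 scale, with a standard error of 0.068 in this fit. Within the dates, 26 members were lower in both pairs, 6 were higher in both and 13 had opposite signs. Over all genes tested 31.0% were lower in both pairs and 31.9% higher in both. The median log2 ratio of the members was -0.046 on 6 March and -0.099 on 15 March, against -0.0058 and 0.0056 over all genes.

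**Figure D2:**
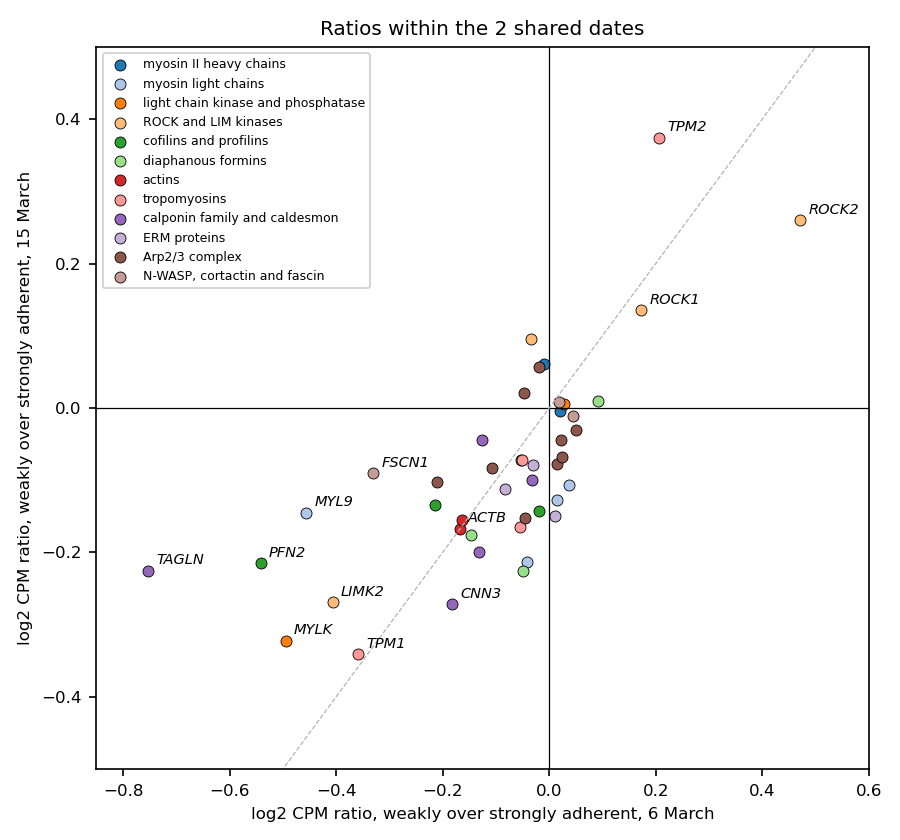
Log2 CPM ratio of weakly over strongly adherent libraries on 6 March (x axis) and on 15 March (y axis), 1 point per gene, coloured by class, with the dashed line marking equal ratios. TAGLN, PFN2, MYLK and MYL9 lie farther from 0 on 6 March than on 15 March, and TPM1 lies near the line at -0.36 and -0.34.

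The heavy chains of non-muscle myosin II, the motor itself, showed almost no difference. MYH9, the heavy chain of myosin IIA, stood at 2116 and 1943 CPM in the strongly adherent libraries of 6 and 15 March and at 2100, 1998 and 2027 CPM in the weakly adherent ones of 6, 12 and 15 March. MYH10, the heavy chain of myosin IIB, stood at 97.3 and 90.2 CPM and at 98.6, 97.0 and 89.9 CPM. The groups overlapped for both genes, with log2 fold changes of 0.0087 (SE 0.079) for MYH9 and 0.022 (SE 0.077) for MYH10. Per kilobase of transcript, MYH9 was at 269 CPM and MYH10 at 12.1 CPM in strongly adherent cells, so the IIA chain was the main one in both groups (270.3 and 12.3 CPM per kilobase in weakly adherent cells).

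Among the light chains, MYL9 had the most negative log2 fold change. The differences between the changes of these genes were not tested. MYL9, a regulatory light chain best known from smooth muscle and stress fibres, was at 134 and 123 CPM in strongly adherent libraries and at 97.9, 97.9 and 111 CPM in weakly adherent ones. Every weakly adherent library was below both strongly adherent ones. The log2 fold change was -0.33 (SE 0.082, adjusted p = 0.054 in edgeR), and with the date block it was -0.30 (adjusted p = 0.00024). MYL9 also passed in edgeR with DESeq2's size factors (adjusted p = 0.047), in DESeq2's Wald test (adjusted p = 0.030), without a filter on low counts (0.010) and without the 15 March weakly adherent library (0.044). It did not pass in limma-voom (0.058), with at least 1 CPM in 2 libraries as the filter (0.056) or with the coding length trend removed (0.062). It also missed without the strongly adherent libraries of 6 March (0.38) and 15 March (0.080), and without the weakly adherent ones of 6 March (0.10) and 12 March (0.19). The ratio of the 6 March pair was -0.46 on the log2 scale and that of the 15 March pair -0.14.

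MYL12A and MYL12B, the near-identical regulatory light chains of non-muscle cells, had log2 fold changes of -0.047 (SE 0.088) and 0.0047 (SE 0.075), and their libraries overlapped. Reads of 50 bases that fit both genes may have been lost as not unique, so the 2 values are less certain than the others. MYL6, the essential light chain, stood at 652 and 675 CPM against 634, 623 and 582 CPM. Its groups did not overlap, but the log2 fold change of -0.11 (SE 0.073) was not called (adjusted p = 0.56 in edgeR). Per kilobase of transcript MYL9 had the lowest level of the 4 light chains, 45.5 CPM in strongly and 36.2 CPM in weakly adherent cells, against 205 to 544 CPM in strongly adherent cells for the other members.

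Of the enzymes that act on the light chain, the kinase was the lower one in weakly adherent cells. MYLK, myosin light chain kinase, was at 60.4 and 61.7 CPM in strongly adherent libraries and at 42.8, 52.0 and 49.4 CPM in weakly adherent ones, with no overlap. The log2 fold change of -0.34 (SE 0.093) was not called without the date block (adjusted p = 0.079 in edgeR). With the date block it was -0.41 (adjusted p = 4.2e-06). PPP1R12A, the subunit that targets myosin phosphatase to myosin, stood at 89.6 and 90.1 CPM and at 91.4, 93.5 and 90.5 CPM. Its groups did not overlap either, but the log2 fold change was only 0.030 (SE 0.071, adjusted p = 0.93 in edgeR). The difference between the changes of the 2 genes was not tested.

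The 2 ROCK kinases were both higher in level in weakly adherent cells, and ROCK2 passed the test. ROCK2 was at 93.4 and 102.6 CPM in strongly adherent libraries and at 129, 121 and 123 CPM in weakly adherent ones. All 3 weakly adherent libraries lay above both others, and the rise was 1.27-fold (log2 fold change 0.35, SE 0.076, adjusted p = 0.031 in edgeR). ROCK1 stood at 97.2 and 97.7 CPM against 109.6, 103 and 107 CPM, again with no overlap, at a log2 fold change of 0.13 (SE 0.072, adjusted p = 0.48 in edgeR). The call on ROCK2 ended whichever of the 5 libraries was left out, at adjusted p = 0.32 without the 6 March strongly adherent library, 0.052 without that of 15 March, and 0.057, 0.085 and 0.070 without the weakly adherent libraries of 6, 12 and 15 March. It held with the date block (adjusted p = 3.0e-06).

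ROCK2 has a longer coding sequence than most members, and fold changes varied with coding length in these libraries. Genes with a coding sequence of 4000 to 6000 bases had a median log2 fold change of 0.11 (601 genes), those of 6000 to 8000 bases one of 0.21 (192 genes), and those under 1000 bases one of -0.015 (3657 genes). ROCK2 has 4164 bases and ROCK1 4062. With each library's trend with coding length removed, ROCK2 came to 0.27 on the log2 scale (adjusted p = 0.13 in edgeR), and to 0.28 when the date block was added (adjusted p = 0.0018). Without the block, the trend removal took ROCK1 from 0.13 to 0.057 (adjusted p = 0.90 in edgeR). For MYLK, with 5742 bases, the same step moved the value away from 0, to -0.52 (adjusted p = 0.0042). MYH9 and MYH10, with 5880 and 6021 bases, came to -0.18 (adjusted p = 0.49) and -0.17 (adjusted p = 0.44). After that step 0.948% of all genes were called higher and 1.06% lower, and of the members 0 and 1, the lower one MYLK. With the date block as well, 4.36% of all genes were higher and 5.11% lower, and of the members 2 and 5.

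**Figure D3:**
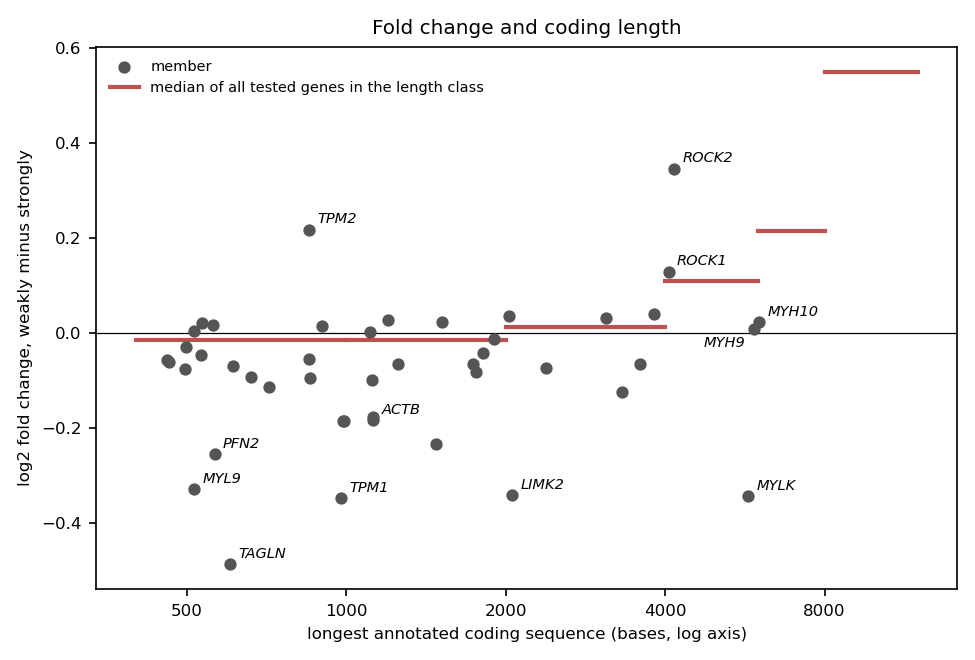
Log2 fold change (y axis, weakly minus strongly adherent) of each of the 45 genes against the length of its longest annotated coding sequence (x axis, log scale, bases). Red bars are medians of all tested genes in each length class; ROCK2 lies above the 0.11 of its class, and MYLK, at -0.34, lies below it.

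Neither LIM kinase, the enzymes that phosphorylate and so inactivate cofilin, was called without the date block. LIMK2 was at 27.2 and 25.9 CPM in strongly adherent libraries and at 20.5, 20.8 and 21.5 CPM in weakly adherent ones. The 3 weakly adherent values sat close together and below both others. The log2 fold change was -0.34 (SE 0.094, adjusted p = 0.086 in edgeR), or -0.34 (adjusted p = 0.0070) with the date block. LIMK1, with the higher level of the pair per kilobase (43.5 against 9.52 CPM in strongly adherent cells), had a log2 fold change of 0.036 (SE 0.074) and overlapping libraries.

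Of the cofilins and profilins, which sever filaments and feed actin monomers to growing ends, the abundant CFL1 and PFN1 were nearly level. CFL1, the main cofilin of non-muscle cells, had 1728 ± 80.8 CPM (SD, n = 2) in strongly and 1645 ± 67.5 CPM (SD, n = 3) in weakly adherent cells, a log2 fold change of -0.071 (SE 0.079). PFN1 was at 1507 and 1442 CPM against 1488, 1400 and 1306 CPM, at -0.077 (SE 0.081). The groups overlapped for all 4 genes of this class, and all 4 log2 fold changes were negative.

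The minor isoforms of the class were lowest on 6 March in both groups. PFN2, the profilin best known from neurons, was at 23.4 and 29.3 CPM in strongly adherent libraries and at 16.1, 24.9 and 25.2 CPM in weakly adherent ones. Each pair of a shared date had less PFN2 in the weakly adherent cells. That gave a log2 fold change of -0.26 (SE 0.20, adjusted p = 0.69 in edgeR) without the date and -0.36 (SE 0.097, adjusted p = 0.0030) with the date block. CFL2, the cofilin of muscle, shared this pattern at 80.5 and 97.0 CPM against 69.4, 103 and 88.4 CPM, with -0.030 (SE 0.16) and, with the date block, -0.17 (adjusted p = 0.092).

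None of the 3 diaphanous formins, which elongate straight filaments, was called. DIAPH1 had 340 ± 12.9 CPM (SD, n = 2) against 349 ± 20.4 CPM (SD, n = 3). DIAPH2 stood at 13.8 and 12.6 CPM against 12.5, 12.8 and 11.2 CPM, a log2 fold change of -0.12 (SE 0.12). DIAPH3 stood at 91.8 and 87.5 CPM against 88.7, 93.3 and 74.8 CPM, at -0.067 (SE 0.094). DIAPH3 was lowest in the 15 March weakly adherent library, without which its log2 fold change was 0.028.

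Both cytoplasmic actins were lower in every weakly adherent library, by 1.14-fold and 1.13-fold, without passing the test. ACTB, beta-actin, was at 6918 and 6681 CPM in strongly adherent libraries and at 6160, 5841 and 5950 CPM in weakly adherent ones. ACTG1, gamma-actin, was at 4563 and 4301 CPM and at 4073, 3818 and 3861 CPM. The log2 fold changes were -0.18 (SE 0.082, adjusted p = 0.33 in edgeR) and -0.18 (SE 0.082, adjusted p = 0.35), or 0.13 and 0.14 as adjusted p with the date block. Each pair of a shared date gave -0.17 for ACTB and -0.16 for ACTG1. Both genes, like CFL1, PFN1 and TPM3, have processed copies in the genome, and 16.0% to 16.8% of all reads were not unique, so their counts are less certain than those of single-copy genes.

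The 2 actins made up most of the difference in the summed level of the 45 genes. The members together held 2.66% and 2.65% of gene counts in strongly adherent libraries and 2.48%, 2.44% and 2.45% in weakly adherent ones. Their summed level was 26475 ± 550.1 CPM (SD, n = 2) against 24595 ± 580.2 CPM (SD, n = 3), of which the actins made 11231 ± 353 and 9901 ± 297 CPM. Without the 2 actins the sum was 15244 ± 197 against 14694 ± 357 CPM.

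**Figure D4:**
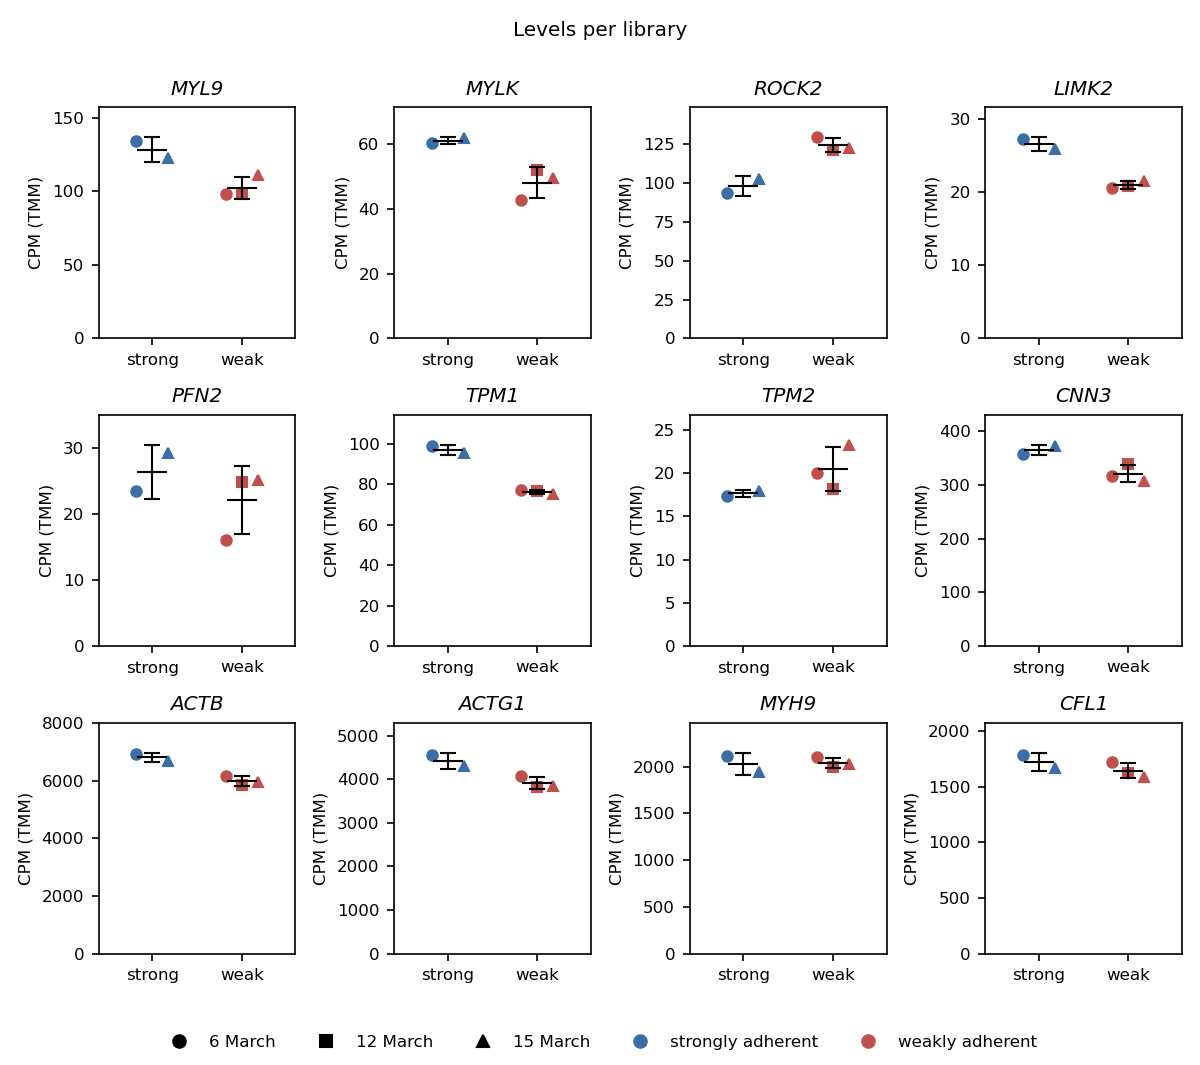
CPM per library (y axes start at 0) for the 8 genes called with or without the date block and for ACTB, ACTG1, MYH9 and CFL1; symbols give the date, colours the group, and black bars the mean and SD. The groups stand apart for TPM1, ROCK2 and LIMK2, overlap for PFN2, and differ little for MYH9.

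Tropomyosins, the coiled-coil proteins that lie along the filament and gate myosin's access, included the 1 member that fell. TPM1 was at 98.8 and 95.4 CPM in strongly adherent libraries and at 77.0, 76.5 and 75.3 CPM in weakly adherent ones. The groups stood far apart relative to the spread within each, and TPM1 fell 1.27-fold (log2 fold change -0.35, SE 0.072, adjusted p = 0.022 in edgeR). The pairs of 6 and 15 March gave -0.36 and -0.34 on the log2 scale. The call held with the date block (adjusted p = 1.8e-05) and without the 6 March weakly adherent library (0.032). It ended without the 6 March strongly adherent library (0.19), that of 15 March (0.086), the 12 March weakly adherent library (0.085) or that of 15 March (0.075), and with the coding length trend removed (0.062).

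TPM2 was at 17.4 and 17.95 CPM in strongly and at 20.0, 18.2 and 23.3 CPM in weakly adherent libraries. Its groups did not overlap, but the 12 March library lay close to the strongly adherent ones. The log2 fold change was 0.22 (SE 0.12, adjusted p = 0.46 in edgeR), and 0.29 (adjusted p = 0.040) with the date block. TPM3 and TPM4, the main isoforms here per kilobase (453 and 314 CPM in strongly adherent cells, against 53.9 for TPM1 and 12.7 for TPM2), were lower without overlap by a small amount, at -0.095 (SE 0.071) and -0.056 (SE 0.070). Neither was called.

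All 5 genes of the calponin family and caldesmon, actin-binding proteins that stabilise contractile filaments, had negative log2 fold changes, and 0 were called without the date block. CNN3, acidic calponin, was at 359 and 372 CPM against 316, 339.6 and 308 CPM, with no overlap. Its log2 fold change was -0.19 (SE 0.073, adjusted p = 0.25 in edgeR), or -0.23 (adjusted p = 0.0059) with the date block, a call that ended when the coding length trend was also removed (-0.19, adjusted p = 0.060). TAGLN, or SM22, a smooth muscle calponin relative, had the most negative log2 fold change of all 45 genes, -0.49 (SE 0.19, adjusted p = 0.24 in edgeR). It rested on few reads, 97 and 83 in strongly adherent libraries and 57, 58 and 71 in weakly adherent ones, and the groups did not overlap. CNN2, TAGLN2 and CALD1 had -0.19 (SE 0.091), -0.094 (SE 0.074) and -0.073 (SE 0.077), with overlapping libraries.

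The ERM proteins, which tie the actin cortex to the membrane, overlapped between the groups. EZR, ezrin, was at 511 and 482 CPM against 500.2, 449 and 456 CPM, a log2 fold change of -0.083 (SE 0.076). MSN, moesin, was at 1098 and 1114 CPM against 1107, 1060 and 1004 CPM, at -0.066 (SE 0.076). RDX, radixin, was at -0.042 (SE 0.076). Moesin was the most abundant of the 3 per kilobase, at 280.5 CPM against 160 for ezrin and 70.7 for radixin in strongly adherent cells.

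The Arp2/3 complex, which nucleates branched actin at the leading edge, had no called gene. Its 9 genes had log2 fold changes between -0.098 and 0.027, with a median of 0.0026, 5 of them positive and 4 negative. With the date block 0 were called as well. ARPC1B had the most negative value, at 219.5 and 204 CPM against 204, 197 and 193 CPM, without overlap (log2 fold change -0.098, SE 0.071, adjusted p = 0.63 in edgeR). ACTR3, the Arp3 subunit, was at 346 and 393.5 CPM against 335, 370 and 354 CPM (-0.067, SE 0.080). The 2 dates gave opposite signs for 6 of the 9 genes. The standard errors of this class, 0.068 to 0.12, mean that a difference of a few percent was not detectable here.

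WASL, or N-WASP, which switches the Arp2/3 complex on, and CTTN, cortactin, which stabilises its branches, were level at 0.023 (SE 0.088) and -0.013 (SE 0.072). WASL was at 55.8 and 63.2 CPM against 56.5, 61.2 and 63.5 CPM. FSCN1, fascin, which bundles the filaments of filopodia and invadopodia, was at 50.9 and 50.2 CPM against 40.5, 41.2 and 47.1 CPM. Its groups did not overlap, but the log2 fold change of -0.23 (SE 0.091) was not called (adjusted p = 0.24 in edgeR, or 0.067 with the date block).

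Counted over the classes, 13 members lay without overlap below both strongly adherent libraries and 4 above them, or 28.9% and 8.89% of the 45. Over all genes tested these shares were 14.5% and 15.5%. The 13 are MYL6, MYL9, MYLK, LIMK2, ACTB, ACTG1, TPM1, TPM3, TPM4, CNN3, TAGLN, ARPC1B and FSCN1, and the 4 are PPP1R12A, ROCK1, ROCK2 and TPM2. Genes are not independent of each other, and these counts are a description and no test.

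Of the 5 genes with a box, MYLK, ACTG1, CNN2 and TPM4 had negative log2 fold changes (-0.34, -0.18, -0.19 and -0.056) and ROCK2 a positive one. These values count all reads of a gene, whichever start they came from. The transcripts of SRF itself, at 169 ± 12.3 against 170.5 ± 14.02 CPM, and of its coactivator MKL1, at 29.9 ± 3.98 against 28.99 ± 2.49 CPM (SD, n = 2 and n = 3), had log2 fold changes of 0.012 and -0.043. The second coactivator, MKL2, was at 15.5 and 17.9 CPM against 21.9, 19.6 and 24.1 CPM, a log2 fold change of 0.39 (SE 0.12, adjusted p = 0.13 in edgeR, or 0.00018 with the date block).

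Of 92 other genes of contractility signalling and actin regulation, 91 were tested (MYH14 had too few reads), 3 rose and 1 fell, with a median log2 fold change of -0.019. That is 3.30% and 1.10% of them, beside 1.77% and 0.918% of all genes. With the date block 13 were higher and 9 lower, or 14.3% and 9.89%, beside 6.20% and 5.28% of all genes. Of the 3 that rose, 2 are kinases related to ROCK. CDC42BPA, the Cdc42 effector kinase MRCK alpha, was at 125 and 125 CPM in strongly adherent libraries and at 180.3, 174 and 179.7 CPM in weakly adherent ones (log2 fold change 0.51, SE 0.069, adjusted p = 0.0018 in edgeR). CIT, citron kinase, which acts at the contractile ring of dividing cells, was at 88.1 and 82.6 CPM against 153, 149.5 and 121 CPM (0.72, SE 0.10, adjusted p = 0.0030). Both calls held whichever library was left out and with the coding length trend removed (adjusted p = 0.023 and 0.025). Of 24 G2/M genes 3 were called higher and 0 lower, and with the date block 21 were higher and 0 lower. Their summed level was 5683 and 5077 CPM in strongly adherent libraries against 8901, 8810 and 6521 CPM in weakly adherent ones. The part of the cell cycle in the values of CIT and of the other genes was not tested.

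The third gene that rose was ARHGEF12, a guanine nucleotide exchange factor, at 296 and 322 CPM against 409, 387 and 407.5 CPM (log2 fold change 0.38, SE 0.073, adjusted p = 0.017 in edgeR). With the coding length trend removed it was at 0.27 (adjusted p = 0.12), and the call also ended without the 6 March strongly adherent library (0.25) or the 12 March weakly adherent one (0.055). RND3, which inhibits ROCK1, fell from 91.0 and 93.7 CPM to 72.2, 71.9 and 69.5 CPM (-0.38, SE 0.072, adjusted p = 0.016 in edgeR). This call held without the 6 March weakly adherent library (0.023). It ended without either of the strongly adherent libraries (0.088 for 6 March, 0.12 for 15 March) and without the weakly adherent ones of 12 March (0.063) or 15 March (0.061).

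In the remaining groups of these other genes 0 were called without the date block, and the gene with the smallest p of each is given. FLNC, filamin C, is named outside that rule, after its values were seen: at a coding length of 8175 bases it went from -0.14 (adjusted p = 0.44 in edgeR) to -0.47 (adjusted p = 0.0049) with the coding length trend removed. Among crosslinkers and stress fibre proteins, 13 of 16 log2 fold changes were negative, with a median of -0.11. PDLIM5, a stress fibre adaptor, stood at 101 and 103 CPM against 81.7, 85.8 and 83.7 CPM (-0.28, SE 0.071, adjusted p = 0.058 in edgeR). TMOD3, which caps the slow end of filaments, was at -0.23 (SE 0.074), and CORO1C, a coronin that acts on branched actin, was at -0.20 (SE 0.072). PAK4, a kinase upstream of LIM kinase, was at 0.29 (SE 0.089). All 4 of these genes passed with the date block (adjusted p = 0.00030 in edgeR, 0.00092, 0.0079 and 0.0019).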

How the data were processed

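RNA of 5 samples of MDA-MB-231 cells was sequenced as 50 bp single-end reads from stranded libraries, per the labels' protocols. The authors deposited raw counts per gene symbol. Cutadapt, FastQC, STAR, HTSeq, DESeq2 and the build hg19 appear, without versions, in the submitters' processing notes. Neither annotation nor strand setting is given in the sources used here, and overlapping and antisense genes are therefore uncertain. A second deposited table, of normalized values, was not used. The 5 HTSeq total rows stayed out: reads outside genes or ambiguous were 9.38% to 11.2% of unique reads.

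For the tests, edgeR 4.0.16 was run on the counts under R 4.3.3 (TMM, filterByExpr, robust quasi-likelihood F test, Benjamini-Hochberg adjustment over all 13297 genes tested). A standard error is the size of the fold change over the square root of F. There were 3 residual degrees of freedom, and the biological coefficient of variation was 7.91%. The titles give the date, so libraries of a shared date were taken as pairs: for 6 March, deviations from the group means had a correlation of 0.34, and for 15 March of 0.20. With only 2 strongly adherent libraries, one deviation is the negative of the other and the correlations depend on each other. The 15 March strongly and 12 March weakly adherent libraries, which share no date, gave 0.16. The pairing therefore rests on the dates. Replicates differed by more than sampling noise, with 7.49 to 12.6 as chi-square over its degrees of freedom.

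Alternatives were DESeq2 1.42.0 (size factors, Wald test), limma-voom 3.58.1, other filters, the date block, removal of each library's trend with coding length (natural spline, 5 degrees of freedom) and leaving out each library. Lengths come by symbol from GENCODE 29, for 91.9% of tested and 96.1% of called genes: the transcript with the longest coding sequence, which these cells may not use. Scripts were tested on simulated data. The members and lists were chosen with earlier results of these data known. Values in every library are given for members called with or without the date block and for the 2 members of each class with the smallest p; of the other genes, those called and the smallest p of each group. Figures used matplotlib 3.10.9.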

Additional observations from a re-analysis of the deposited data

How the results depend on the processing

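Groups of 3 and 2 libraries limit the precision, and single libraries decided calls. The count of members called higher, 1, became 2 with the date as a replicate block, 0 with the coding length trend removed and 2 with both; it was 0 to 0 with each library left out. The count of members called lower, 1, became 2 with DESeq2's size factors, 2 in DESeq2's Wald test, 3 without a filter, 6 with the replicate block and 5 with block and trend removal, and was 0 to 1 with a library left out. Of the other pathway genes, 3 higher became 13 with the block and 9 with block and trend removal, or 2 to 4 with a library left out, and 1 lower became 3 without a filter, 9 with the block, 2 with the trend removed and 11 with both, or 0 to 1. Over all genes, 235 higher became 825 with the block, 126 with the trend removed and 580 with both, or 82 to 238 with a library left out, and 122 lower became 203 without a filter, 702 with the block and 679 with block and trend removal, or 34 to 103. The cause of these shifts was not tested.

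Log2 fold changes near 0 changed sign, none of them called. With the trend removed MYH9 was at -0.18, MYH10 at -0.17 and DIAPH1 at -0.018; with the block as well these were -0.17, -0.20 and -0.0080, beside MYL12B at -0.016, PPP1R12A at -0.0039 and CTTN at 0.013. With the block alone MYL12B was at -0.035, ARPC1A at -0.011, ARPC3 at -0.013, ACTR2 at -0.022 and CTTN at 0.017. With each library left out, values ran from -0.047 to 0.070 for MYH9, -0.027 to 0.076 for MYH10, -0.18 to 0.10 for MYL12A, -0.035 to 0.053 for MYL12B, -0.037 to 0.12 for LIMK1, -0.17 to 0.12 for CFL2, -0.0078 to 0.079 for DIAPH1, -0.13 to 0.028 for DIAPH3 and -0.16 to 0.019 for CALD1. The ranges were -0.016 to 0.025 for ARPC1A, -0.0066 to 0.040 for ARPC2, -0.044 to 0.090 for ARPC3, -0.011 to 0.047 for ARPC4, -0.16 to 0.054 for ARPC5, -0.086 to 0.15 for ACTR2, -0.16 to 0.034 for ACTR3, -0.065 to 0.12 for WASL and -0.050 to 0.017 for CTTN.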
